A study of Rattus norvegicus with 16 samples.

Results

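The cytochrome P450 genes of the rat array were taken as the probes whose RefSeq transcript carries a symbol that starts with Cyp and a digit. This gave 70 genes and 93 probes, of 16678 genes and 45598 probes for rat transcripts in all. The brightest probe stood for each of the 18 genes with more than 1 probe. The male Brown Norway rats are given as 7 weeks old at sensitization, and tissue was taken after 3 weeks of sensitization and 3 weeks of challenge. HDM rats (n = 5) were given house dust mite, 45 µg at a time under the skin with aluminium hydroxide and then 120 µg at a time into the nose. Control rats (n = 3) received saline by both routes, with the same aluminium hydroxide under the skin. Lung and adipose tissue of each rat were hybridised separately, so that there were 16 one-colour arrays. The fat depot that was sampled is not named in the sources used here.

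P450 enzymes are heme proteins that insert an oxygen atom into their substrates, with electrons from the reductase Por in the endoplasmic reticulum or from ferredoxin in mitochondria. Families named Cyp1, Cyp2 and Cyp3 are best known for the turnover of drugs and inhaled chemicals, which in the lung takes place largely in club cells. The Cyp4 enzymes hydroxylate fatty acids and eicosanoids such as leukotrienes, and the other families make or break down steroids, sterols, bile acids, vitamin D and retinoic acid.

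Levels are given as log2 signal minus the 75th percentile of the same array, so 0 is the level of that percentile, and levels are compared between arrays and never between genes. A gene counted as called when limma's p-value, adjusted over all 45598 probes, was under 0.05 and the fold change was over 1.5. A probe's signal was taken as measured where the scanner software marked it as well above background. On the lung arrays 36 to 41 of the 70 genes were well above background. On the adipose arrays the number was 47, 29, 25, 25 and 39 in HDM rats 1 to 5 and 30, 27 and 45 in control rats 1 to 3. HDM rats 1 and 5 and control rat 3 thus had many more P450 genes above background in adipose tissue than the other 5 rats. Over all probes, the adipose share above background was also highest in control rat 3 (60.3%) and HDM rat 1 (58.5%). It was 55.3% in HDM rat 5 and lowest in HDM rat 2 (50.5%).

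**Figure D1:**
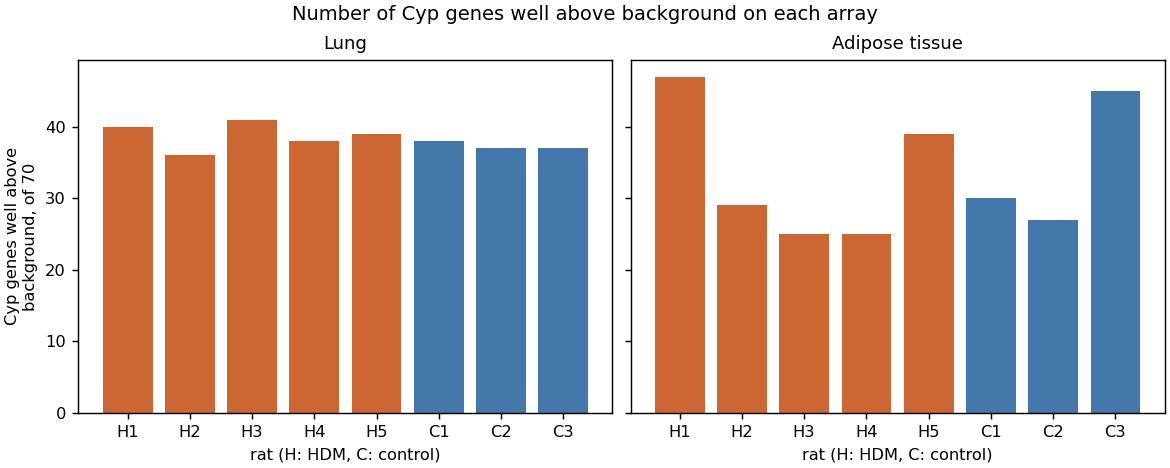
Number of the 70 Cyp genes (vertical axis) whose brightest probe was well above background on each array, with HDM rats in orange and control rats in blue. The lung arrays lie between 36 and 41, whereas the adipose arrays run from 25 in HDM rats 3 and 4 to 47 in HDM rat 1.

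The tissue labels were borne out by their markers. Sftpc, the surfactant protein of alveolar type II cells, stood at 9.10 ± 0.13 in lung and -4.29 ± 0.42 in adipose tissue, and Adipoq, the adipocyte hormone adiponectin, at -0.08 ± 1.83 in lung and 8.88 ± 0.29 in adipose tissue (n = 8 each). Several arrays also held transcripts of other tissues. In lung, Adipoq was 1.18, 1.66, -2.01, -1.90 and 2.29 in HDM rats 1 to 5 and -1.06, -1.99 and 1.16 in control rats 1 to 3, so HDM rats 1, 2 and 5 and control rat 3 stood apart. In adipose tissue, the summed signal of 8 epididymis markers was 3087 times the 75th percentile in HDM rat 1 and 3782 times in control rat 1, against 0.242 to 28.8 times in the other 6 rats. The adipose array of HDM rat 2 had 1224 outlier spots, the highest number of the 16 arrays. All lung arrays lay on 1 slide and all adipose arrays on another, so tissue and slide cannot be told apart. Within each slide HDM rats 1 to 4 filled row 1, and HDM rat 5 and the 3 control rats filled row 2.

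In lung, 1 of the 70 P450 genes was called between HDM and control rats, against 390 of 45598 probes (0.855%). This was Cyp4f18, a member of the leukotriene and fatty acid hydroxylases that in mice is known as the leukotriene B4 hydroxylase of neutrophils. Its level in lung was -0.60, -1.05, -0.91, -0.59 and -1.12 in HDM rats 1 to 5 and -1.77, -2.83 and -2.94 in control rats 1 to 3, so every HDM rat lay above every control rat, and all 8 arrays were well above background. Cyp4f18 rose by 1.66 ± 0.28 (SE) on the log2 scale, or 3.16-fold (limma, adjusted p = 0.0478). Over the 21 alternatives its difference ran from 1.05 to 2.03, and 8 of them kept the call. The exact two-sided permutation p was 0.0179, which is the smallest that 5 and 3 rats allow. The call was close to the threshold: leaving out 1 rat at a time gave adjusted p-values from 0.0141 without control rat 1 to 0.209 without control rat 2, and only the fit without control rat 1 kept the call. With slide row as a block, where HDM rat 5 alone is set against the control rats, the difference was 1.39 (adjusted p = 0.594).

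The 4 neutrophil markers (S100a8, S100a9, Mmp8 and Csf3r) were all called higher in the lungs of HDM rats, and each was well above background on all 8 lung arrays. Their summed signal was 122 to 267 times the 75th percentile in HDM rats and 7.76 to 9.81 times in control rats. Csf3r, the receptor for granulocyte colony-stimulating factor, was 0.05, 0.14, 0.24, 0.51 and 0.32 in HDM rats 1 to 5 and -1.82, -1.78 and -2.18 in control rats 1 to 3. In adipose tissue the same sum was 2.84 to 8.08 times in HDM rats and 0.232 to 0.357 times in control rats, with 3 of 4 markers without overlap (6.26% of all probes) and none called. Cyp4f18 in adipose tissue was -4.41, -3.21, -3.81, -3.20 and -4.69 in HDM rats 1 to 5 and -3.15, -5.51 and -4.05 in control rats 1 to 3, and the groups overlapped. The part of neutrophil content in the lung difference was not tested, and in tissue RNA more cells of a type and more RNA per cell cannot be told apart. The summed signal of the 3 eosinophil markers in lung was 0.806 to 2.36 times the 75th percentile in HDM rats and 0.257 to 0.476 times in control rats, and that of the 3 macrophage markers was 8.95 to 10.5 and 7.78 to 8.62 times. Neither sum overlapped between groups, no single marker of these lists was called, and their part was not tested either.

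The 250 bases before the RefSeq start sites of Cyp4f18 (build GRCr8, plus strand, chr16:17797308-17797557 for the upstream start and chr16:17811108-17811357 for the downstream start) and of Cyp26a1 (plus strand, chr1:244883572-244883821) are shown because both genes lay higher in every HDM lung. Both strands were searched, and capitals mark the matches. TATAAA is the TATA box. AGGTCA is the core that nuclear receptors read. AGTTCA is a variant of it that retinoic acid receptors bind. GCGTG is the core bound by the aryl hydrocarbon receptor.
Cyp4f18 upstream start: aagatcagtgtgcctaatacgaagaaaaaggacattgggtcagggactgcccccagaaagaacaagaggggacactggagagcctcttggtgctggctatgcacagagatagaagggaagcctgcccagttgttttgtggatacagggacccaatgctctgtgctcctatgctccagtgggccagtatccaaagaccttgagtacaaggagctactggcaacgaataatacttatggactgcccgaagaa
Cyp4f18 downstream start: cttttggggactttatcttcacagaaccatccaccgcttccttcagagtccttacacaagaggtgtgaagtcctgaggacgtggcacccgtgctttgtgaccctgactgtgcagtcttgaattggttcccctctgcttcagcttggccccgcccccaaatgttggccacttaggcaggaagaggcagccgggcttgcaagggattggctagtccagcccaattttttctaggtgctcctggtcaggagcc
Cyp26a1: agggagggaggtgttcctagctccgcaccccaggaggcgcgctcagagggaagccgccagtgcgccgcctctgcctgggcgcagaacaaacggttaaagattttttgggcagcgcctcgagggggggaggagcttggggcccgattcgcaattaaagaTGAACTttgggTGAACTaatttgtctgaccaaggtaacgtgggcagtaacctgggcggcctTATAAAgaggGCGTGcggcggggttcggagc
Neither Cyp4f18 window held any of these letters. The Cyp26a1 window held AGTTCA on the opposite strand (TGAACT as printed) at 92 and 81 bases before the start, which together form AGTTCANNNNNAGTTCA, the spacing of a retinoic acid response element. This repeat occurred in 3 of 33469 rat promoter windows (0.00896%), and in 1 of the 57 windows of the 55 P450 genes that had one. TATAAA was in 12.9% of all windows and in 31.6% of the P450 windows, AGGTCA in 14.1% and 35.1%, AGTTCA in 12.2% and 24.6%, and GCGTG in 25.9% and 24.6%. A match gives only the letters and says nothing about binding.

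Neither retinoic acid hydroxylase was called in lung. Cyp26a1, which clears retinoic acid, was -4.85, -3.51, -4.26, -4.88 and -4.59 in HDM rats 1 to 5 and -5.51, -5.64 and -5.66 in control rats 1 to 3 in lung. The scanner marked the probe as above background for 5 of 5 HDM rats and for none of the control rats, and the groups did not overlap. Cyp26a1 did not pass the adjustment (difference 1.19 ± 0.31, limma adjusted p = 0.169). It passed when only probes past 1.5-fold were adjusted (limma adjusted p = 0.0218). That filter selects on the tested difference itself and took the calls over all probes from 390 to 1329, so no conclusion is drawn from it. The Cyp26a1 difference is set against control arrays at background. With normexp background correction and quantile normalization together it was 0.22. Cyp26b1, the other enzyme of this step, was 2.23, 3.48, 1.96, 2.41 and 2.89 in HDM rats 1 to 5 and 2.12, 1.99 and 1.94 in control rats 1 to 3. Its groups overlapped through HDM rat 3, and the difference of 0.58 ± 0.32 was not called (adjusted p = 0.666). HDM rat 2 was the highest in both genes.

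Cyp7b1, an oxysterol and steroid hydroxylase that makes bile acid intermediates, was -0.76, -0.81, -0.84, -0.99 and -0.90 in HDM rats 1 to 5 and -1.39, -1.35 and -1.34 in control rats 1 to 3 in lung. All 5 HDM rats lay above all 3 control rats in a narrow band. The difference of 0.50 ± 0.10, or 1.41-fold, did not pass either threshold (limma adjusted p = 0.0696, exact permutation p = 0.0179). Cyp4f18, Cyp26a1 and Cyp7b1 were the 3 P450 genes without overlap between groups in lung, which is 4.29% of the 70 genes, against 9.61% of all probes. The same 3 genes had an unadjusted limma p under 0.05, as did 10.2% of all probes.

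**Figure D2:**
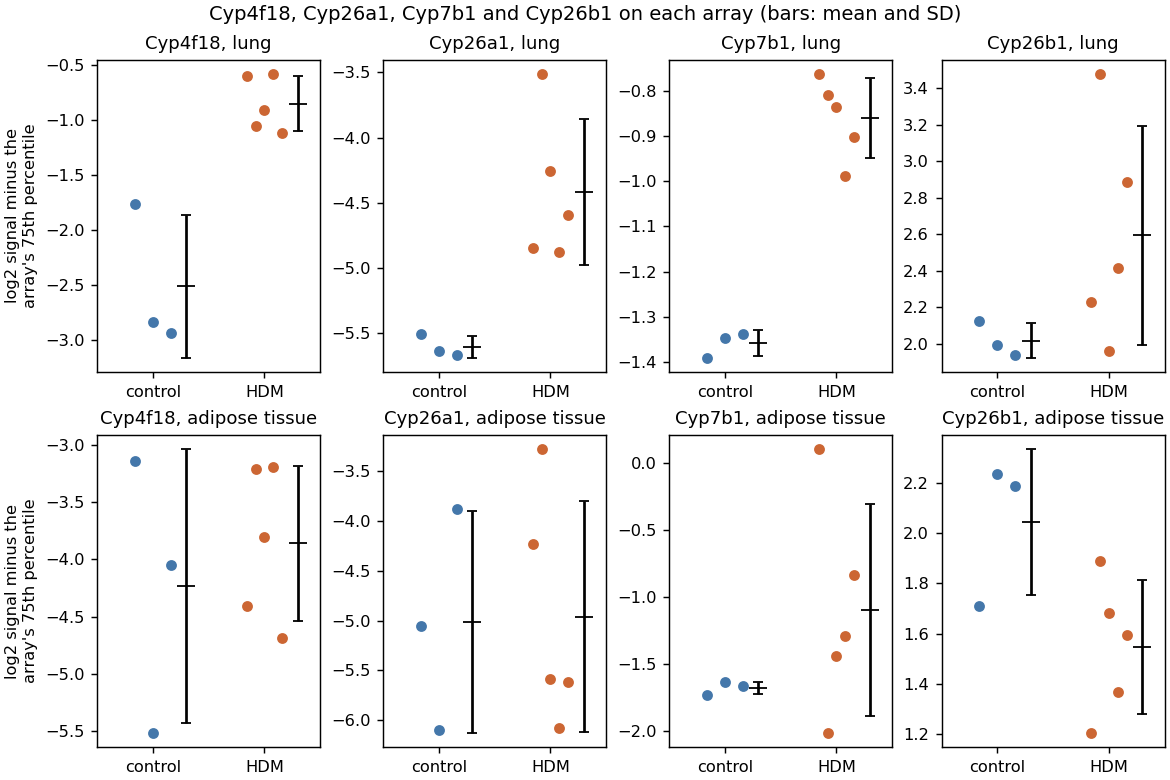
Level of 4 P450 genes on each array (log2 signal minus the array's 75th percentile), in control rats (blue, n = 3) and HDM rats (orange, n = 5) of lung (upper row) and adipose tissue (lower row), with mean and SD. In lung the groups do not overlap for Cyp4f18, Cyp26a1 and Cyp7b1, whereas in adipose tissue they overlap for all 4 genes.

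The other lung P450 genes with the largest differences varied between rats of a group. Cyp2g1, known from the olfactory mucosa, was -4.79, -4.78, -4.63, -5.19 and -2.76 in HDM rats 1 to 5 and -3.42, -3.96 and -3.24 in control rats 1 to 3, so HDM rat 5 lay above the control rats and the other 4 HDM rats below them. Cyp2a3, a lung and nasal enzyme of nitrosamine activation, was 0.01, -0.23, -1.22, -0.89 and 1.99 in HDM rats 1 to 5 and 0.54, 0.10 and 0.99 in control rats 1 to 3, and again HDM rat 5 was the highest of all rats. The club cell protein Scgb3a1 was also highest in that lung (4.00, 3.82, 2.88, 2.29 and 5.59 in HDM rats 1 to 5 and 3.82, 2.99 and 3.02 in control rats 1 to 3), whereas the summed signal of the 3 club cell markers was 363 times the 75th percentile there and 367 times in control rat 3. The part of club cells was not tested. With slide row as a block, which leaves HDM rat 5 against the control rats, the difference of Cyp2g1 went from -0.89 to 0.78 and that of Cyp2a3 from -0.61 to 1.44; neither was called. Cyp1b1, an estrogen and hydrocarbon hydroxylase that the aryl hydrocarbon receptor induces, was -3.63, 0.60, -4.60, -3.71 and -3.16 in HDM rats 1 to 5 and -3.49, -4.07 and -3.19 in control rats 1 to 3. HDM rat 2 alone was high, and without it the difference went from 0.68 to -0.19. Cyp4a8, a fatty acid hydroxylase, was 3.36, 3.54, 5.14, 2.54 and 2.27 in HDM rats 1 to 5 and 2.46, 2.65 and 3.11 in control rats 1 to 3, with HDM rat 3 highest and HDM rat 5 lowest. The other probes of Cyp4a8 were above background on no array of either tissue.

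The lung levels of further P450 genes are given next. Cyp2f4, the naphthalene-activating enzyme of club cells, was 4.50, 4.70, 3.66, 4.39 and 5.83 in HDM rats 1 to 5 and 4.91, 4.78 and 4.61 in control rats 1 to 3. Cyp4b1, a lung enzyme that activates aromatic amines and furans, was 5.64, 5.78, 5.65, 6.05 and 5.62 in HDM rats 1 to 5 and 5.84, 6.01 and 6.09 in control rats 1 to 3. Cyp2b2, whose probe cannot be assumed to be free of signal from its near-identical paralog Cyp2b1, was 4.27, 4.48, 4.03, 5.05 and 5.00 in HDM rats 1 to 5 and 4.83, 4.98 and 4.94 in control rats 1 to 3. In all 3 genes the groups overlapped (Cyp2f4 was highest in HDM rat 5, and went to 1.06 with slide row as a block), with differences of -0.15 ± 0.42, -0.23 ± 0.13 and -0.35 ± 0.25 on the log2 scale. Cyp2a3 and Cyp2g1 differed by -0.61 ± 0.67 and -0.89 ± 0.52, both highest in HDM rat 5. Cyp2s1, an epithelial enzyme, was 1.61 ± 0.23 in HDM rats and 1.85 ± 0.16 in control rats, and Cyp3a9 was -1.62 ± 0.25 in HDM rats and -1.54 ± 0.03 in control rats (SD, n = 5 and 3, as in all such pairs). The ethanol-inducible Cyp2e1 was 0.60 ± 0.25 in HDM rats and 0.55 ± 0.46 in control rats. Cyp2j4, which makes epoxides of arachidonic acid, was 1.28 ± 0.08 in HDM rats and 1.14 ± 0.07 in control rats, Cyp2d4 was -0.45 ± 0.44 in HDM rats and -0.41 ± 0.10 in control rats and Cyp4v3, a fatty acid hydroxylase, was -1.24 ± 0.16 in HDM rats and -1.21 ± 0.07 in control rats. None of these genes was called.

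Among the sterol enzymes in lung, Cyp51, which removes a methyl group from lanosterol in cholesterol synthesis, was 1.17 ± 0.34 in HDM rats and 1.26 ± 0.48 in control rats. Cyp27a1, the mitochondrial sterol hydroxylase, was 2.93 ± 0.05 in HDM rats and 2.81 ± 0.13 in control rats, and Cyp39a1, an oxysterol hydroxylase, was -2.65 ± 0.31 in HDM rats and -2.45 ± 0.07 in control rats. Of the vitamin D enzymes, Cyp27b1, which makes the active hormone, was -3.72 ± 0.18 in HDM rats and -3.69 ± 0.05 in control rats, and Cyp2r1, which acts before it, was -4.69 ± 0.41 in HDM rats and -4.44 ± 0.10 in control rats. Cyp24a1, which inactivates the hormone, was well above background in 1 control rat only. The orphan enzyme Cyp20a1 was 0.90 ± 0.11 in HDM rats and 1.06 ± 0.11 in control rats. All these groups overlapped, and none of the genes was called. The steroid-making Cyp11a1, Cyp21a1 and Cyp17a1 differed by 0.31 ± 0.23, -0.03 ± 0.15 and -0.52 ± 0.47, and Cyp17a1 was well above background in 1 lung of 8. Cyp1a2 was above background in 2 lungs, both of HDM rats, and was highest at -4.52 in HDM rat 3 and -4.98 in HDM rat 5. Cyp1a1, the classical target of the aryl hydrocarbon receptor, and Cyp19a1, the aromatase, were below that mark on every array.

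Over the 70 genes, higher and lower lung means were nearly equal in number, but this did not hold within every class. The higher and lower means in HDM rats numbered 14 and 15 for Cyp2 and 7 and 7 for Cyp4. They numbered 0 and 3 for vitamin D, 2 and 0 for Cyp26 and 5 and 2 for steroid hormone synthesis. These counts and the medians below include 23 genes that were above background on no lung array. Cyp11b1 and Cyp19a1, both counted as higher, were among these 23. Cyp11b2, also counted as higher, and Cyp24a1, counted as lower, were above background on 1 lung array each. The median over the 70 genes was -0.01 on the log2 scale, with 34 means higher and 36 lower in HDM rats, against a median of 0.00 over all probes. The medians were -0.01 for the 29 genes of the Cyp2 class, -0.08 for the 5 Cyp3 genes, -0.01 for the 14 Cyp4 genes, 0.08 for the 7 genes of steroid hormone synthesis and -0.25 for the 3 vitamin D genes. The 2 Cyp26 genes had a median of 0.88, which includes the Cyp26a1 difference against background. Within the Cyp4f subfamily, 5 of 7 genes were above background in lung. Cyp4f18 lay at 1.66, and the remaining members had no call. Of those above background, Cyp4f1 (on 1 array) lay at -0.29, Cyp4f5 at -0.20, Cyp4f6 at -0.16 and Cyp4f17 at -0.02. Cyp4f40 at -0.33 and Cyp4f4 at 0.54 were at background on every lung array.

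**Figure D3:**
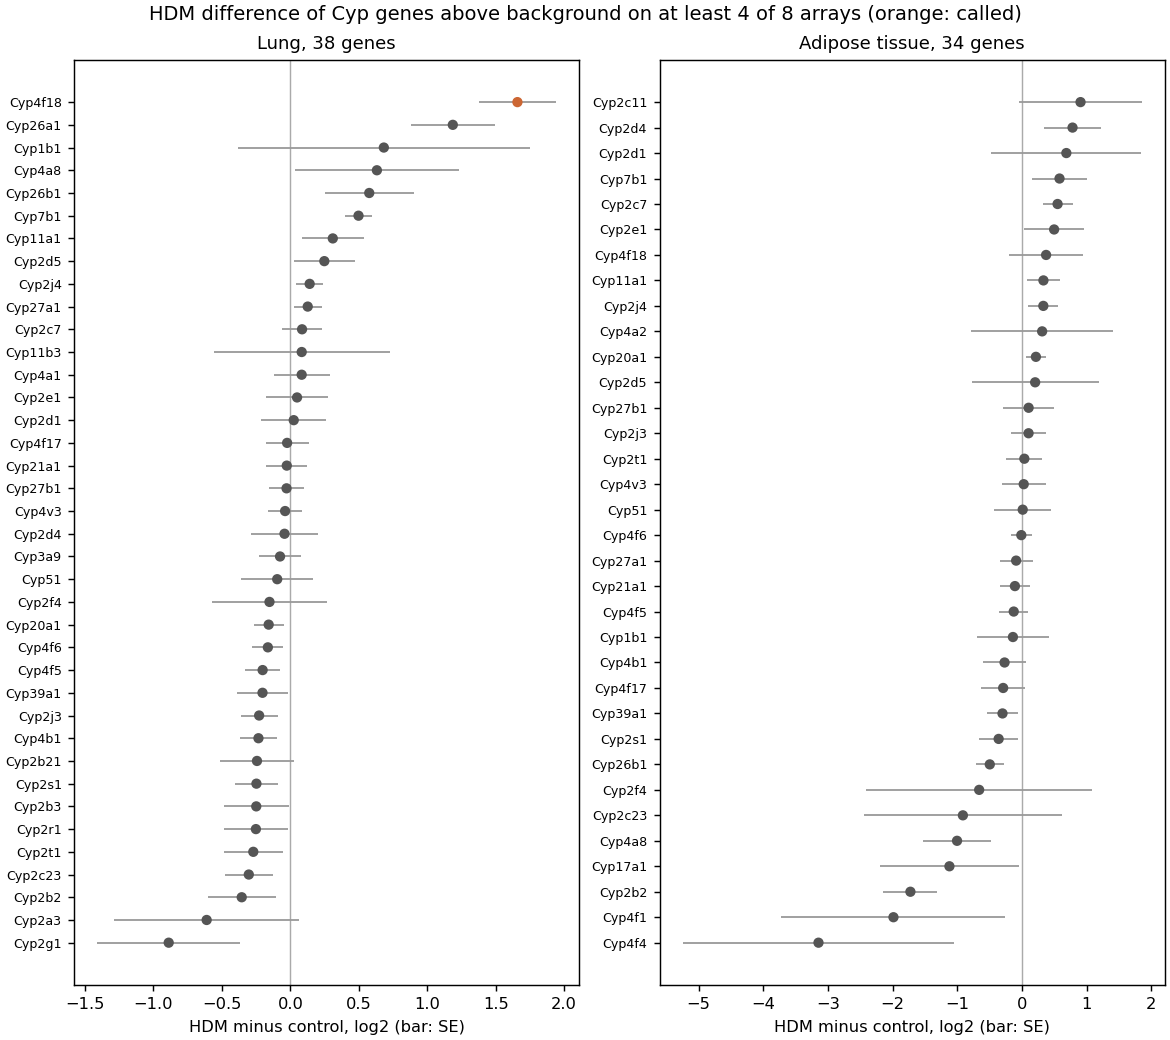
HDM minus control difference (log2, with SE) of the P450 genes that were well above background on at least 4 of the 8 arrays, 38 genes in lung (left) and 34 in adipose tissue (right), with called genes in orange. Cyp4f18 in lung is the only called gene, and the widest bars belong to Cyp1b1 in lung and to Cyp4f4, Cyp4f1, Cyp2f4 and Cyp2c23 in adipose tissue.

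In adipose tissue none of the 70 P450 genes was called between HDM and control rats, and neither was any of the 45598 probes (0%) by limma. At an unadjusted limma p under 0.05 there were 4 P450 genes and 4515 probes (9.90%). The methods' t-test, adjusted over all 45598 probes, also called none. The paper applied its 1.5-fold threshold first and did report called genes in adipose tissue. With only probes past 1.5-fold adjusted, limma called 28 adipose probes and no P450 gene, but that filter selects on the tested difference. Cyp2b2 was -3.09, -3.35, -3.83, -5.02 and -3.51 in HDM rats 1 to 5 and -1.77, -2.21 and -2.12 in control rats 1 to 3, so all HDM rats lay below all control rats. The difference was -1.72 ± 0.42 (limma adjusted p = 0.309, exact permutation p = 0.0179). It ran from -1.89 to -0.38 over the 22 alternatives. Cyp2a3 was -5.62, -5.83, -6.34, -5.79 and -6.09 in HDM rats 1 to 5 and -3.30, -4.41 and -5.59 in control rats 1 to 3, also without overlap, but was well above background in 1 control rat alone. Cyp2c22, the remaining gene without overlap, was at background on all adipose arrays. These 3 genes are 4.29% of the 70, against 6.26% of all probes without overlap. The remaining gene with an unadjusted p under 0.05 was Cyp2c7, at -0.41, -0.61, -0.73, -0.44 and -0.21 in HDM rats 1 to 5 and -1.54, -0.84 and -0.72 in control rats 1 to 3. This probe was above background on all 8 adipose arrays. The other Cyp2c7 probes were so on 1 to 3 of them, with differences from -0.10 to 1.30.

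The largest differences in adipose tissue belonged to genes that varied from rat to rat within both groups. Cyp4f4, an eicosanoid hydroxylase of the liver, was -0.69, -5.90, -6.74, -6.45 and -2.30 in HDM rats 1 to 5 and 1.24, -6.14 and 1.10 in control rats 1 to 3. Its relative Cyp4f1 was -0.24, -4.69, -6.36, -6.42 and -2.23 in HDM rats 1 to 5 and -0.67, -5.21 and -0.13 in control rats 1 to 3. Both were high in HDM rats 1 and 5 and control rats 1 and 3, and at the dim end in the other 4 rats. The differences of -3.15 ± 2.10 and -1.99 ± 1.73 were within that spread (limma adjusted p = 0.692 and 0.778). With 1 rat left out at a time, Cyp4f4 ran from -5.58 to -1.89 and Cyp4f1 from -3.59 to -1.05. Hnf4a, a transcription factor of liver, kidney and gut, was 0.25, -5.66, -6.51, -5.18 and -0.73 in HDM rats 1 to 5 and 1.67, -5.04 and 2.18 in control rats 1 to 3, and the xenobiotic receptor Nr1i2 was -2.57, -5.32, -5.16, -6.02 and -2.72 in HDM rats 1 to 5 and -0.72, -4.14 and -0.44 in control rats 1 to 3. Both were highest in the same 4 rats.

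Several other P450 genes known from the liver also varied between the adipose samples. Cyp2c11, the main male-specific P450 of rat liver, was -0.34, -3.19, -4.90, -2.91 and -2.62 in HDM rats 1 to 5 and -4.72, -3.87 and -2.50 in control rats 1 to 3. Cyp2c13 was 0.72, -4.25, -4.44, -6.25 and -1.74 in HDM rats 1 to 5 and -5.65, -5.96 and -2.62 in control rats 1 to 3, and Cyp2c6v1 was 1.12, -3.51, -6.52, -6.29 and -1.18 in HDM rats 1 to 5 and -4.44, -5.17 and -1.60 in control rats 1 to 3. HDM rat 1 was the highest in each, and HDM rat 5 and control rat 3 followed. Cyp2c23, an epoxygenase of liver and kidney, was 0.00, -4.39, -6.64, -6.52 and -2.36 in HDM rats 1 to 5 and -2.24, -4.43 and -2.54 in control rats 1 to 3. Cyp4a2 was 0.52, -3.60, -4.61, -3.96 and -1.65 in HDM rats 1 to 5 and -2.68, -3.32 and -2.92 in control rats 1 to 3. Of the 11 P450 genes that were above background in adipose tissue only, 8 were highest in HDM rat 1, 2 in control rat 3 and 1 in control rat 1, and in 5 of the 11 the 3 highest rats were HDM rats 1 and 5 and control rat 3. The hepatocyte markers Ttr and Serpina1 were also highest in these 3 rats, and none of the 4 markers was called. Ttr, the thyroid hormone carrier transthyretin, was 4.58, 0.47, -4.63, -3.48 and 1.89 in HDM rats 1 to 5 and -2.42, -2.52 and 1.39 in control rats 1 to 3, and Serpina1 was 2.88, -1.65, -5.38, -5.20 and 0.70 in HDM rats 1 to 5 and -0.36, -5.27 and 1.04 in control rats 1 to 3. Alb, albumin, did not follow, at 6.55, 6.78, 6.46, 6.04 and 6.68 in HDM rats 1 to 5 and 5.60, 6.52 and 6.20 in control rats 1 to 3. The summed signal of the 4 markers was 66.0 to 126 times the 75th percentile in HDM rats and 49.4 to 92.0 times in control rats. The part of liver-type transcripts in these levels was not tested.

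**Figure D4:**
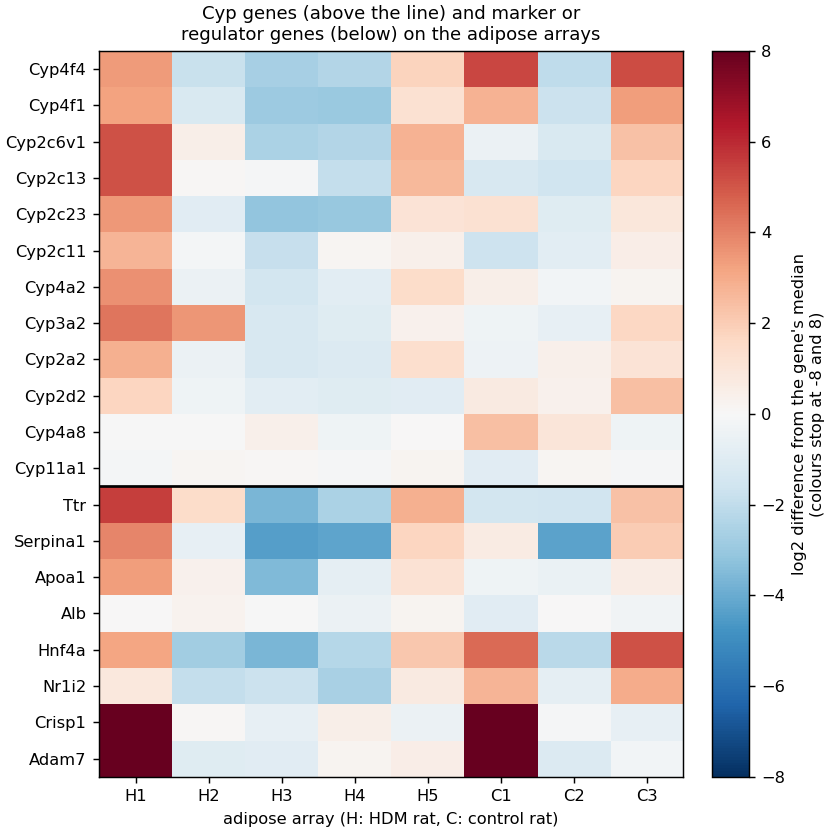
Levels on the 8 adipose arrays, each as a log2 difference from the gene's median over these arrays, for 12 P450 genes (above the line) and 8 hepatocyte, regulator or epididymis genes (below the line). Cyp2c6v1 and Cyp2c13 are red in HDM rats 1 and 5 and control rat 3 as Ttr is, Cyp4f4 and Cyp4f1 also in control rat 1 as Hnf4a is, and Crisp1 and Adam7 stand out in HDM rat 1 and control rat 1 alone.

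Cyp4a8 was 3.61, 3.65, 4.04, 3.33 and 3.66 in HDM rats 1 to 5 and 6.05, 4.60 and 3.33 in control rats 1 to 3 in adipose tissue, highest in control rat 1, the rat with the highest sum of epididymis markers. In HDM rat 1, with the next highest sum, Cyp4a8 was 3.61, within the range of the other HDM rats. Cyp17a1, which makes androgen precursors, was -2.55, -5.75, -6.58, -4.82 and -3.84 in HDM rats 1 to 5 and -2.71, -5.74 and -2.31 in control rats 1 to 3, and was above background in 2 HDM rats and 2 control rats. Cyp2d4 was 0.65, 1.16, 1.56, 1.05 and 1.12 in HDM rats 1 to 5 and -0.84, 1.24 and 0.57 in control rats 1 to 3, lowest in control rat 1. Cyp17a1 and Cyp2d4 differed by -1.12 ± 1.08 and 0.78 ± 0.44, and none of the 3 genes was called (limma adjusted p = 0.590 for Cyp4a8). With 1 rat left out at a time, Cyp17a1 ran from -2.20 to -0.48 and Cyp2d4 from 0.20 to 1.24. Without HDM rat 1 and control rat 1 together, the Cyp2c11 difference went from 0.91 to -0.21. Cyp2f4 in adipose tissue was -2.65, 1.92, -4.81, -5.15 and -3.12 in HDM rats 1 to 5 and -0.33, -5.10 and -0.86 in control rats 1 to 3, highest in HDM rat 2 and next highest in control rats 1 and 3. The adipose array of HDM rat 2 was alone in having Cyp2g1 (by its other probe, the brighter in adipose tissue) at -0.85 and Cyp2b12 at -0.41, while the club cell marker Scgb1a1 was -0.65 there and at most -4.27 elsewhere. The part of club cell transcripts was not tested.

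The remaining adipose genes by role are given next. Cyp11a1, the side-chain cleavage enzyme that starts steroid synthesis, was 3.84, 4.18, 4.10, 3.92 and 4.26 in HDM rats 1 to 5 and 3.10, 4.16 and 3.91 in control rats 1 to 3. Cyp26b1 was 1.21, 1.89, 1.68, 1.37 and 1.60 in HDM rats 1 to 5 and 1.71, 2.24 and 2.19 in control rats 1 to 3, a difference of -0.50 ± 0.22 with overlapping groups (adjusted p = 0.506). Cyp7b1 was 0.10, -2.01, -1.44, -1.29 and -0.84 in HDM rats 1 to 5 and -1.73, -1.64 and -1.67 in control rats 1 to 3, so HDM rat 1 was the highest and HDM rat 2 the lowest of all rats. Cyp51 was 3.09, 1.88, 1.89, 1.67 and 2.06 in HDM rats 1 to 5 and 3.06, 1.69 and 1.56 in control rats 1 to 3, high in HDM rat 1 and control rat 1. Cyp27a1 was 2.34 ± 0.39 in HDM rats and 2.42 ± 0.23 in control rats, Cyp2j4 was 2.45 ± 0.30 in HDM rats and 2.12 ± 0.30 in control rats and Cyp4b1 was 3.10 ± 0.40 in HDM rats and 3.37 ± 0.63 in control rats. Cyp1b1 was -1.78 ± 1.05 in HDM rats and -1.64 ± 0.17 in control rats, Cyp2e1 was 1.15 ± 0.64 in HDM rats and 0.65 ± 0.83 in control rats and Cyp20a1 was 1.02 ± 0.14 in HDM rats and 0.81 ± 0.09 in control rats. None of them was called. Cyp39a1 was -2.44 ± 0.28 in HDM rats and -2.14 ± 0.39 in control rats, Cyp21a1, of corticosterone and aldosterone synthesis, was -1.86 ± 0.35 in HDM rats and -1.75 ± 0.14 in control rats, and Cyp4v3 was -2.03 ± 0.52 in HDM rats and -2.06 ± 0.43 in control rats. Cyp2s1 was -3.68 ± 0.48 in HDM rats and -3.32 ± 0.33 in control rats, Cyp27b1 was -3.59 ± 0.40 in HDM rats and -3.69 ± 0.87 in control rats and Cyp26a1 was -4.96 ± 1.17 in HDM rats and -5.01 ± 1.11 in control rats. Each of these 6 pairs overlapped. Cyp3a9, Cyp2r1 and Cyp1a2 were above background in 1, 2 and 3 adipose arrays. The median difference over the 70 genes was -0.01, against -0.15 over all probes.

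Between the tissues of the same rat, 13 P450 genes (18.6%) were called higher in lung, against 14.9% of all probes, and 33 (47.1%) were called higher in adipose tissue, against 39.4% of all probes. The median over all probes was -0.50 (lung minus adipose tissue, log2), so differences are best read against that value. Of the 33 genes, 12 were at background in both tissues by the probe compared. All 13 genes called higher in lung were well above background there. When the adjustment was restricted to probes above background on at least 8 of 16 arrays, 13 P450 genes were higher in lung and 7 in adipose tissue. The same filter moved the median over all probes from -0.50 to -0.10. Shares of all probes by direction were not counted under it, so this shift is not read as particular to P450 genes.

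Cyp2b2 and Cyp2f4 had the largest differences toward lung. As stated above, the Cyp2b2 probe cannot be assumed to be free of signal from Cyp2b1, which had no matched probe. From lowest over median to highest, Cyp2b2 was 4.03, 4.89 and 5.05 in lung, against -5.02, -3.22 and -1.77 in adipose tissue, and the mean difference was 7.64 ± 0.29 (SE, n = 8 rats, as for the other tissue differences). Cyp2f4 was 3.66, 4.66 and 5.83 in lung, against -5.15, -2.88 and 1.92 in adipose tissue, with a mean difference of 7.12 ± 0.85. Every rat had the higher level of both genes in its lung. Cyp2a3 differed by 5.42 ± 0.43, Cyp2s1 by 5.23 ± 0.16, Cyp3a9 by 3.71 ± 0.52 and Cyp4b1 by 2.63 ± 0.19. Cyp4f18 differed by 2.37 ± 0.25 and Cyp2d1 by 1.90 ± 0.52 (limma, Cyp2d1 having the largest adjusted p of these 8 genes = 0.0134). Cyp2d1 kept its call in 16 of 19 alternatives, losing it without control rat 1 (adjusted p = 0.0537), in HDM rats alone and in control rats alone. In adipose tissue Cyp2a3 and Cyp3a9 were above background on 1 array each, Cyp2d1 on 4, Cyp2f4, Cyp2s1 and Cyp4f18 on 5, Cyp2b2 on 7 and Cyp4b1 on 8, so the differences of all but Cyp4b1 include adipose arrays at background. With normexp background correction and quantile normalization together the differences were smaller. They were 6.27 for Cyp2b2, 5.84 for Cyp2f4, 2.56 for Cyp2a3, 3.33 for Cyp2s1, 1.23 for Cyp3a9, 1.00 for Cyp4f18 and 0.67 for Cyp2d1. The lung was higher in all 8 rats for each of these genes except Cyp2d1, where it was higher in 7. By the probe compared, Cyp2b21 and Cyp2g1 were above background in lung only, with at least 4.77-fold and at least 1.70-fold more signal there. The other Cyp2g1 probe was above background on 0 lung arrays and on 1 adipose array. Scgb1a1, the secretoglobin that marks club cells, was 7.74 ± 0.12 in lung and -4.19 ± 1.47 in adipose tissue.

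Cyp11a1 was the P450 gene with the largest difference toward adipose tissue. From lowest over median to highest it was -3.13, -2.78 and -2.08 in lung, against 3.10, 4.01 and 4.26 in adipose tissue. The mean difference was -6.65 ± 0.16 with the same sign in all 8 rats (limma adjusted p = 1.40e-07). It was -5.17 with normexp and quantile normalization together. Another probe of the gene was above background on 8 adipose arrays and 3 lung arrays, and differed in the same direction. In lung, Cyp11a1 was -2.44, -2.64, -2.92, -2.94 and -2.08 in HDM rats 1 to 5 and -3.00, -3.13 and -2.61 in control rats 1 to 3, and the 4 lungs with the highest Adipoq were also the 4 with the highest Cyp11a1. The part of fat in those lung samples was not tested. Star, which carries cholesterol to this enzyme, was -3.68 ± 0.52 in lung and -1.80 ± 0.61 in adipose tissue and was also called higher in adipose tissue. Cyp21a1 and Cyp2j4 differed by -1.07 ± 0.15 and -1.08 ± 0.13, again with the same sign in all 8 rats. The 250 bases before the Cyp11a1 start (GRCr8, plus strand, chr8:67318415-67318664) are shown with AGGTCA, the letters also read by the steroidogenic factor SF-1, in capitals, at 229 and 95 bases before the start.
Cyp11a1: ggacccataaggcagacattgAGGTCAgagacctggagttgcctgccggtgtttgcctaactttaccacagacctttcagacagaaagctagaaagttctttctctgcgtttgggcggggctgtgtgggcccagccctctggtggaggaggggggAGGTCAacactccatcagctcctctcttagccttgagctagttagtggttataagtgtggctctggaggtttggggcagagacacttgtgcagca
The other motifs named above were not in this window.

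The differences of Cyp4f1 (-3.64 ± 0.76), Cyp4a2 (-3.17 ± 0.73) and Cyp2c11 (-2.83 ± 0.44) varied widely between rats: over the 8 rats the Cyp4f1 difference ran from -6.28 to -0.61, that of Cyp4a2 from -6.98 to 0.22 and that of Cyp2c11 from -5.25 to -0.42. In lung they were above background on only 1, 2 and 2 arrays, so these values include lung arrays at background. With normexp and quantile normalization together they were -1.10, -0.70 and -0.68. Cyp2d4 (-1.14 ± 0.26) and Cyp4a8 (-1.10 ± 0.40) were called as well, with 1 rat of 8 of the opposite sign in each. Cyp4a8 lost its call under 4 of the other scalings or corrections and in 6 of the 8 fits without 1 rat. The genes measured in adipose tissue alone gave lower bounds of 5.67-fold for Cyp4f4, 5.35-fold for Cyp2c6v1, 4.27-fold for Cyp2c13, 2.52-fold for Cyp4a3, 2.26-fold for Cyp3a2, 1.86-fold for Cyp2a2, 1.63-fold for Cyp2a1 and 1.60-fold for Cyp2d2, mostly liver enzymes of the rat that were above background in 1 to 4 of the 8 adipose arrays, so the adipose means also include arrays at background. Cyp2c12 and Cyp7a1, at background on all 16 arrays, differed by -1.33 ± 0.17 and -1.36 ± 0.21, so the smaller of these bounds are within the size of differences between background levels. The Cyp2a2 difference itself was not called (adjusted p = 0.0540).

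**Figure D5:**
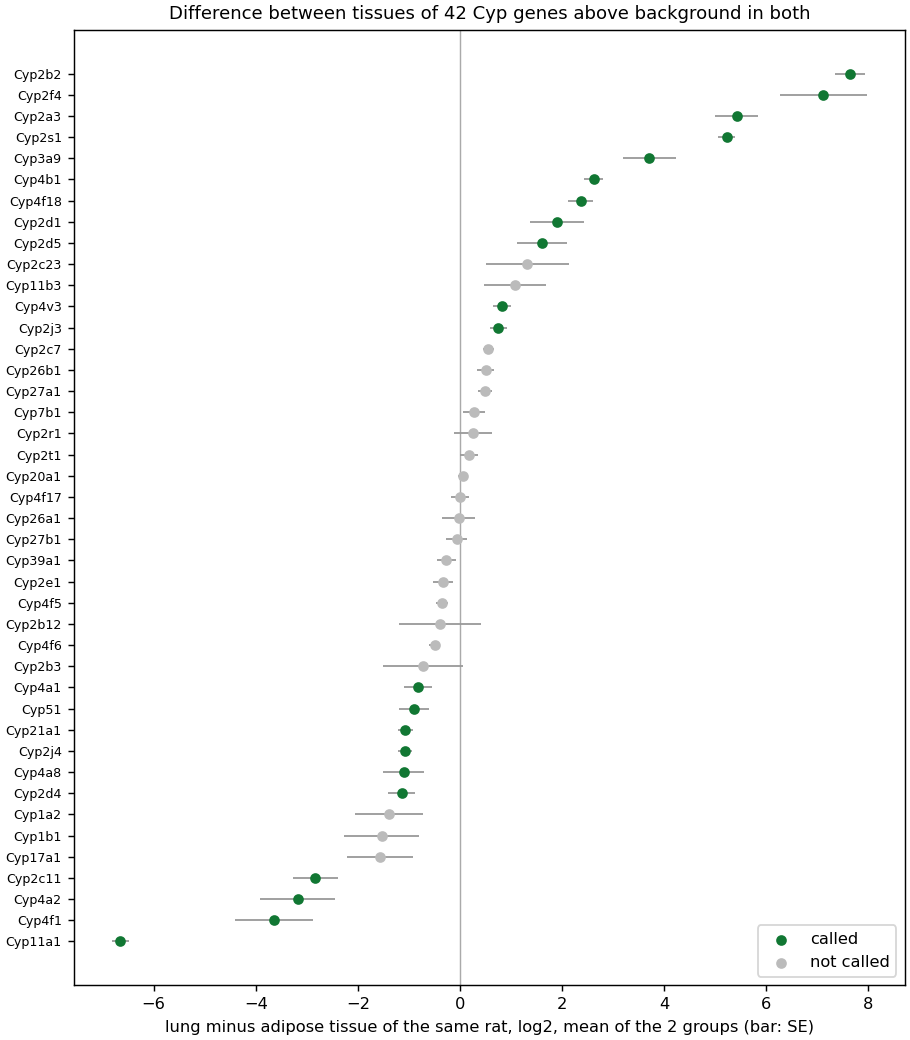
Lung minus adipose tissue difference (log2, mean of the 2 groups, with SE over 8 rats) of the 42 P450 genes that were well above background on at least 1 array in each tissue, with called genes in green and the others in grey. Cyp2b2 and Cyp2f4 lie farthest toward lung and Cyp11a1 farthest toward adipose tissue, whereas Cyp20a1, Cyp27b1 and Cyp26a1 (above background on 5 lung and 2 adipose arrays) lie near 0.

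Several tissue differences were small and not called. Cyp20a1 differed by 0.06 ± 0.10, Cyp27b1 by -0.07 ± 0.21, Cyp26a1 by -0.02 ± 0.32, Cyp39a1 by -0.27 ± 0.18, Cyp2e1 by -0.33 ± 0.19 and Cyp7b1 by 0.28 ± 0.22; those of Cyp26a1, Cyp27b1, Cyp2e1 and Cyp39a1 turned positive when arrays were scaled to Gapdh and Hprt1. Cyp26a1 was above background on 5 lung and 2 adipose arrays only, so its difference includes arrays at background. Cyp27a1 (0.49 ± 0.13) and Cyp26b1 (0.51 ± 0.16) had adjusted p-values of 0.0122 and 0.0264 but did not reach 1.5-fold. Cyp51 (-0.90 ± 0.29) and Cyp4v3 (0.82 ± 0.18) were called, in opposite directions. Cyp51 kept its call in 10 of 20 alternatives and in 4 of 8 fits without 1 rat, and its other probe gave -0.32 (limma adjusted p = 0.137).

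Whether the HDM difference itself differed between lung and adipose tissue was tested on the per-rat difference between tissues. No P450 gene passed, and 1 probe of 45598 did (0.00219%). At an unadjusted limma p under 0.05 there were 3 P450 genes: Cyp26b1 (1.07 ± 0.33, HDM difference in lung minus that in adipose tissue), Cyp4f18 (1.28 ± 0.49) and Cyp2b2 (1.37 ± 0.58). They are 4.29% of the 70 genes, against 7.74% of all probes. Their adjusted p-values were 0.520, 0.610 and 0.634. The call of Cyp4f18 in lung and its absence in adipose tissue are therefore not shown to differ.

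The partners of the P450 enzymes were measured too. Por, the reductase that feeds electrons to the microsomal P450s, was 1.59, 1.82, 1.46, 2.19 and 2.17 in HDM rats 1 to 5 and 2.53, 2.43 and 2.49 in control rats 1 to 3 in lung. All HDM rats lay below all control rats, but the difference of -0.64 ± 0.19 was not called (limma adjusted p = 0.249). Alas1, the rate-limiting enzyme of heme synthesis, was 4.21, 4.34, 4.29, 4.55 and 4.83 in HDM rats 1 to 5 and 5.13, 5.12 and 5.04 in control rats 1 to 3, also without overlap (-0.65 ± 0.16, adjusted p = 0.137). Ahr, the aryl hydrocarbon receptor, was 1.42, 1.00, 0.66, 1.38 and 1.19 in HDM rats 1 to 5 and 0.61, 0.68 and 0.47 in control rats 1 to 3, and the groups overlapped. None of the 8 redox partners, 12 heme genes, 12 regulators, 13 oxidation and hydrolysis enzymes, 13 conjugation enzymes and 2 P450 enzymes with other symbols (Tbxas1 and Ptgis) was called in either tissue. In lung, 3 of the 13 conjugation enzymes had no overlap between groups, against 9.61% of all probes. The glutathione transferase Gsta4 and the sulfotransferase Sult1a1 differed by -0.30 ± 0.10 and -0.48 ± 0.14, and the acetyltransferase Nat1 by 0.27 ± 0.12. Among the regulators the retinoid receptor Rxrb differed by -0.39 ± 0.11, also without overlap. Of the 13 oxidation and hydrolysis enzymes, 1 was lower in HDM lungs without overlap, against 9.61% of all probes. In adipose tissue, Fmo2 was 0.99, 1.15, 1.54, 2.06 and 2.23 in HDM rats 1 to 5 and 3.00, 3.29 and 3.05 in control rats 1 to 3, without overlap (limma adjusted p = 0.266). Fmo4 differed by -0.44 ± 0.21 in adipose tissue, also without overlap. These were 2 of the 13 oxidation and hydrolysis enzymes, against 6.26% of all probes without overlap in adipose tissue. Por was 2.16, 2.89, 2.93, 2.96 and 2.89 in HDM rats 1 to 5 and 2.08, 2.84 and 2.63 in control rats 1 to 3 there, with overlapping groups.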

How the data were processed

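Lung and adipose tissue RNA (50 ng per sample) was labelled with Cy3 and hybridised to one-colour Agilent arrays. The deposited intensity values are the processed signals of Agilent Feature Extraction 12.0.3.1, which per the file headers were background-subtracted and detrended within each array. The authors also deposited a table of normalized log2 values from GeneSpring, centred per probe within a tissue, which was used as an alternative only. The deposited marks for background, saturation and outlier spots are 0 or 1 per spot.

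Outlier and control spots were left out, spots of a probe were averaged, and log2 signals were taken minus the 75th percentile of the array. Differences were tested with limma 3.58.1 (R 4.3.3), with Benjamini-Hochberg adjustment over 45598 probes, in each tissue separately. Tissues were compared by the difference within each rat, since both arrays came from the same animal. Called means adjusted p under 0.05 and over 1.5-fold. Single genes were also given an exact two-sided permutation test over 56 splits. The number of arrays limits the precision.

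The genes and lists were chosen with earlier results of these data known. Named were all called genes, the 8 largest differences per tissue among genes above background on at least 4 of 8 arrays, the 8 largest in each direction between tissues with the largest lower bounds, and genes by role; Cyp2b1 had no matched probe. A lower bound sets the bright group's mean against, on each dim array, the higher of the lowest signal well above background and the probe's own signal. Lists covered the P450 partners and cell type markers. The values of 1 listed gene are not reported here. Promoter windows came from RefSeq (GRCr8). The methods were tested on simulated data. Alternatives changed the scaling, background correction, filter, blocks, weights, probes and rats. Wherever normexp (offset 50) is named, it was combined with quantile normalization. It used the median spot signal, because the files hold no mean signal.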

Additional observations from a re-analysis of the deposited data

Results flagged for a closer look

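In 4 of the 57 groups of 5 HDM rats tested, 1 rat lay far from the others by Dixon's criterion at 95%, which chance gives in about 1 of 20 groups. Each of the 4 was high. In lung, Cyp2g1 was -2.76 in HDM rat 5, with the nearest rat at -4.63, and Cyp1b1 was 0.60 in HDM rat 2, with the nearest at -3.16. In adipose tissue, both values belonged to HDM rat 1: Cyp2r1 was -3.23, with the nearest rat at -5.20, and Cyp51 was 3.09, with the nearest at 2.06. Cyp51 and Cyp2r1 were also high in control rat 1, and the sum of epididymis markers was highest in these 2 adipose samples. The part of those transcripts was not tested.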

How the results depend on the processing

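The 1 P450 gene called in lung, Cyp4f18, kept its sign in all 21 alternatives and its call in 8 of them. The count of P450 genes called in lung became 0 with the methods' t-test, with arrays scaled to their median or to Gapdh and Hprt1, with the slide row as a block and in the joint fit of both tissues, and 2 (Cyp26a1 in addition) when only probes past 1.5-fold were adjusted; without 1 rat it ran from 0 to 1. Replicate numbers 1 to 3 are shared by the groups but did not pair the rats (correlations of deviations -0.0604, -0.0779 and 0.0457 among lung arrays, 0.591, 0.136 and 0.0974 among adipose arrays), and with the replicate number as a block the lung count was 0 (Cyp4f18 adjusted p = 0.310, limma). Without pairing lung and adipose tissue of a rat, the tissue counts stayed within 1.5 times. The P450 counts in adipose tissue and for the difference between tissues in HDM response were 0 in every alternative run. The count of genes higher in adipose tissue, 33, became 10 with quantile normalization alone and 7 with normexp and quantile normalization together. It was 7 with dim probes left out, where the median over P450 genes went from -0.94 to 0.28. The median over all probes went from -0.50 to -0.10 there. The median over P450 genes ran from -0.20 to 0.28 for HDM in adipose tissue. Over all probes, the 390 called in lung became 1329 with adjustment past 1.5-fold, 737 with array weights, 705 without dim probes, 166 in the joint fit, 25 with the slide row, 0 with the replicate block and 100 to 333 without 1 rat, and the 0 called in adipose tissue became 106 in the joint fit, 28 past 1.5-fold and 15 with array weights. The cause was not tested.

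Among the differences of named genes that were not called, some changed sign under an alternative: 41 of 555 values in lung, 61 of 665 in adipose tissue and 25 of 230 between tissues. None of the 21 values of the called lung gene and none of the 345 values of genes called between tissues did, and 311 of these 345 kept the call. Of the differences between HDM and control rats in lung, these changed sign with the percentile over probes above background Cyp21a1 (0.015), Cyp27b1 (0.013) and Cyp4v3 (0.0027), by another probe Cyp27b1 (0.17) and Cyp2g1 (0.45), by a further probe Cyp1b1 (-0.26), with array weights Cyp27b1 (0.031) and Cyp2d4 (0.034). Sign changes also came scaled to the array median Cyp2e1 (-0.0031), with normexp Cyp1a2 (0.0034), with the replicate number as a block Cyp21a1 (0.019), Cyp27b1 (0.083), Cyp4v3 (0.030) and Cyp51 (0.13), with the slide row as a block Cyp1a2 (0.98), Cyp2a3 (1.44), Cyp2d4 (0.26), Cyp2f4 (1.06), Cyp2g1 (0.78), Cyp2s1 (0.066), Cyp3a9 (0.24) and Cyp4a8 (-0.47). Leaving out 1 rat at a time, the differences that changed sign ran from -0.57 to 0.16 for Cyp1a2, from -0.19 to 1.11 for Cyp1b1, from -0.099 to 0.049 for Cyp21a1, from -0.092 to 0.018 for Cyp27b1, from -0.14 to 0.12 for Cyp2d4, from -0.20 to 0.26 for Cyp2e1, from -0.46 to 0.086 for Cyp2f4, from -0.081 to 0.028 for Cyp4v3, from -0.37 to 0.058 for Cyp51.

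Of the differences between HDM and control rats in adipose tissue, these changed sign with the percentile over probes above background Cyp26a1 (-0.0048), Cyp4v3 (-0.030) and Cyp51 (-0.046), by another probe Cyp1a2 (-0.60), Cyp27b1 (-0.22) and Cyp51 (-0.045), by a further probe Cyp1b1 (0.15), with array weights Cyp26a1 (-0.42) and Cyp3a9 (-0.11). Sign changes also came scaled to Gapdh and Hprt1 Cyp1b1 (0.14) and Cyp26a1 (-0.38), scaled to the array median Cyp1b1 (0.16), Cyp21a1 (0.19), Cyp27a1 (0.21) and Cyp4b1 (0.027), with normexp Cyp2c23 (0.20), Cyp2s1 (0.0044) and Cyp51 (-0.019), with quantile normalization Cyp2s1 (0.0056) and Cyp51 (-0.020). Sign changes also came with the replicate number as a block Cyp1b1 (0.072), Cyp2f4 (0.25) and Cyp4v3 (-0.27), with the slide row as a block Cyp21a1 (0.15), Cyp26a1 (-0.61), Cyp27a1 (0.20), Cyp27b1 (-0.36), Cyp2c23 (0.71), Cyp39a1 (0.17), Cyp4f18 (-0.45) and Cyp51 (-0.043), without HDM rat 1 and control rat 1 Cyp1a2 (-0.56), Cyp26a1 (-0.15), Cyp2c11 (-0.21), Cyp2f4 (0.19), Cyp3a9 (-0.53) and Cyp4v3 (-0.021). Leaving out 1 rat at a time, the differences that changed sign ran from -0.19 to 1.68 for Cyp1a2, from -0.53 to 0.16 for Cyp1b1, from -0.19 to 0.011 for Cyp21a1, from -0.49 to 0.62 for Cyp26a1, from -0.22 to 0.069 for Cyp27a1, from -0.40 to 0.40 for Cyp27b1, from -2.16 to 0.22 for Cyp2f4, from -1.32 to 0.20 for Cyp2r1, from -0.64 to 0.49 for Cyp3a9, from -0.56 to 0.068 for Cyp4b1, from -0.26 to 0.92 for Cyp4f18, from -0.22 to 0.22 for Cyp4v3, from -0.26 to 0.49 for Cyp51.

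Of the differences between lung and adipose tissue, these changed sign with the percentile over probes above background Cyp26a1 (0.088) and Cyp27b1 (0.046), in HDM rats only Cyp20a1 (-0.12) and Cyp26a1 (0.54), with array weights Cyp26a1 (0.062) and Cyp27b1 (0.0076), scaled to Gapdh and Hprt1 Cyp26a1 (0.52), Cyp27b1 (0.37), Cyp2e1 (0.23) and Cyp39a1 (0.17). Sign changes also came scaled to the array median Cyp26a1 (0.053) and Cyp27b1 (0.010), in control rats only Cyp26b1 (-0.028), with normexp Cyp27b1 (0.038), with quantile normalization Cyp26a1 (0.37) and Cyp27b1 (0.084). Sign changes also came without HDM rat 1 and control rat 1 Cyp26a1 (0.085) and Cyp27b1 (0.077). Leaving out 1 rat at a time, the differences that changed sign ran from -0.29 to 0.28 for Cyp26a1, from -0.31 to 0.086 for Cyp27b1, from -0.091 to 0.71 for Cyp2r1.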
